A study of Homo sapiens with 12 samples.

Results

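The genes described here encode the proteins of the cytosolic ribosome. They were chosen by symbol: RPL or RPS followed by a number, with or without the letter A, X or L and a further digit, together with *RPLP0*, *RPLP1*, *RPLP2* and *RPSA*. This rule took 87 of the 57820 genes in the deposited table, 53 of the large subunit and 34 of the small subunit, and used no measured value. It was set with earlier results of these data known. Of these members, 84 are annotated as protein coding in GENCODE v29, whose gene IDs matched 86 of the 87. The rows named *RPS10L* and *RPL12L3* are processed pseudogenes there. The rule leaves out ribosomal proteins with other names, among them *FAU*, *RPL36AL* and *GNB2L1*, whose values are given with the related gene groups.

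A ribosome is built from ribosomal RNA and 1 copy of nearly every ribosomal protein, so cells make these proteins in matched amounts, and the mRNAs that encode them are among the most abundant of a growing cell. Most of these mRNAs begin with a C followed by a run of pyrimidines, the 5′ terminal oligopyrimidine (TOP) tract, through which mTOR signaling controls their translation. A few ribosomal proteins have a second gene that encodes a closely related protein, often with expression limited to certain tissues. In tumors, ribosome production is linked to growth control by MYC, mTOR and the p53 pathway.

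The data set holds 4 groups with 3 libraries in each. K30 and K450 are parental cells of KYSE30 and KYSE450, established human esophageal squamous cell carcinoma (ESCC) lines. According to the study's methods, the cells carried a luciferase lentivirus and were selected with G418. K30LM3 and K450LM2 are the highly metastatic populations derived from them, obtained by injecting cells into the tail vein of SCID/Beige mice, recovering them from lung nodules and growing them in culture, with 3 rounds in KYSE30 and 2 in KYSE450. The rounds of selection therefore differ between the lines, and each selected group is 1 population. The libraries of a group are called biological replicates, and no source used here says that they came from separate cultures, so p-values measure only the spread between these libraries, which may be technical. Values are FPKM, fragments per kilobase of transcript, scaled to library size, so levels can be set side by side between genes. Depth, estimated from the steps between the lowest values, was 21.5 to 29.5 M fragments per library. In bulk RNA, fewer cells that express a gene and less RNA per cell cannot be told apart, and FPKM give shares of the mRNA, not amounts per cell. Markers of other cell types stayed low, with summed levels of 2.84 to 7.21 FPKM for 6 fibroblast genes, 0.19 to 6.59 for 3 endothelial genes and 2.18 to 10.2 for 5 leukocyte genes over all libraries, and with the lung surfactant genes *SFTPB* and *SFTPC* under 1 FPKM throughout. Host cells carried over from the lungs would be mouse cells, and the genome build was human, so these human genes say little about them. The 5 lung epithelium genes summed to 83.5 to 87.7 FPKM in K450 and 24.0 to 29.4 in K450LM2, nearly all of it *SCGB1A1*, and the part of this in the results was not tested. Squamous markers summed to 184 to 207 FPKM in K30 and 276 to 281 in K30LM3. Their sums were 11700 to 12230 FPKM in K450 and 10760 to 11270 in K450LM2. Most of the sum in KYSE30 was *SFN*, at 153 to 176 FPKM in K30 and 207 to 211 in K30LM3. *KRT5*, a defining squamous keratin, was at or under 0.17 FPKM in the K30 libraries. *TP63* was lower in every K30LM3 library than in any K30 library, and the other squamous markers were higher. *KRT14* was at 586 to 607 FPKM in K450 and 1844 to 1995 in K450LM2. *KRT17* also rose in K450LM2, while *KRT5*, *KRT6A*, *TP63* and *SFN* fell.

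The first bases of these mRNAs show what the members share and where some depart from it. The windows below run from 15 bases before to 15 bases from the annotated start, in RefSeq on GRCh38.p14, and capitals mark the unbroken run of pyrimidines from the start site, which is the 16th base. The first set holds members with such a run, chosen because the results turn on their levels.
RPS27A, chr2:55232673-55232702, plus strand: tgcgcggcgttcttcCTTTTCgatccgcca
RPL13A, chr19:49487593-49487622, plus strand: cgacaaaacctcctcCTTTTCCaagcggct
RPS27, chr1:153990747-153990776, plus strand: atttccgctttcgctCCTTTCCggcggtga
RPS6, chr9:19380222-19380251, minus strand: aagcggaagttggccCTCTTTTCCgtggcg
RPL26, chr17:8383179-8383208, minus strand: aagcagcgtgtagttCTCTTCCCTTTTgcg
RPLP1, chr15:69452803-69452832, plus strand: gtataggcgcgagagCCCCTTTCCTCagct
RPL22, chr1:6199581-6199610, minus strand: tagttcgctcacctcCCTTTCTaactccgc
RPL22L1, chr3:170870181-170870210, minus strand: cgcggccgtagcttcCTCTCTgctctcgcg

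The second set holds members of the same results whose annotated start is not a pyrimidine, so that no base is in capitals.
RPS4X, chrX:72277234-72277263, minus strand: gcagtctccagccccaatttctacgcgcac
RPS26, chr12:56041903-56041932, plus strand: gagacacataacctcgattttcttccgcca
RPL4, chr15:66504841-66504870, minus strand: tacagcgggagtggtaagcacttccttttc
RPL7L1, chr6:42879601-42879630, plus strand: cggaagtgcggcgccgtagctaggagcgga
RPS27L, chr15:63157463-63157492, minus strand: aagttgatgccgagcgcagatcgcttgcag

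In these windows a pyrimidine run lies a few bases after the start of *RPS4X*, *RPS26* and *RPL4*. The annotated start may not be the one these cells use. Of the 67 members with a RefSeq promoter, 47 (70.1%) began with a C followed by at least 4 more pyrimidines, against 4.98% of 27238 other symbols. The 6-letter motif CGGAAG, read on both strands, was found in the 250 bases upstream of the start of 59.7% of the members and 19.3% of the other symbols. *RPL22* and *RPL22L1*, which differed in level and in change, both begin with a C and a run of pyrimidines.

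Ribosomal protein mRNAs made up 17.2 to 20.9% of all FPKM in the 12 libraries. A mean of at least 1000 FPKM over the 12 libraries was reached by 64 members, 15 lay between 100 and 1000, and 8 were lower. In every library 78 members were at or above 100 FPKM, of 661 such genes in all. The 5 highest members were *RPS29*, *RPS18*, *RPS2*, *RPS27* and *RPL12*, with means of 4682 to 3479 FPKM, and they held 13.4% of the summed member FPKM. At the low end stood paralogs, among them *RPL26L1* at 101, *RPL39L* at 81.9, *RPL7L1* at 58.4, *RPL22L1* at 53.4 and *RPS27L* at 27.9 FPKM. *RPL10L* and *RPL3L*, whose expression is otherwise known from testis and from heart and skeletal muscle, were under 1 FPKM in every library and were not tested. *RPL10L* had 0.18, 0.07 and 0.06 FPKM in K30 and was listed at 0 in the 9 other libraries.

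The pool of ribosomal protein mRNA was smaller in K30LM3 than in K30, whereas the selected and parental libraries of KYSE450 overlapped. The members summed to 143146, 141280 and 140945 FPKM in the K30 libraries and to 126003, 125413 and 121599 in K30LM3. All K30LM3 libraries lay below all K30 libraries, and the mean fell by 12.31% (exact two-sided permutation test, p = 0.1, the smallest value that 3 libraries against 3 allow). Their share of all FPKM was 19.19 ± 0.099% (SD, n = 3) in K30 and 17.45 ± 0.217% in K30LM3. On the scale of summed FPKM, the large subunit fell by 10.86% and the small subunit fell by 14.27%, again with separate libraries and an exact p of 0.1. Without the 5 highest members the mean fell by 11.75%. In KYSE450 the sums were 161252, 162537 and 166171 FPKM in K450 and 159020, 164662 and 161103 in K450LM2. These sums overlapped, with means that differed by -1.06% (exact permutation test, p = 0.4), and the shares were 20.65 ± 0.227% (SD, n = 3) and 20.55 ± 0.246%. The parental lines also differed, since K450 was 15.18% above K30 with separate libraries (exact permutation test, p = 0.1). The summed FPKM of all genes was itself 7.02% higher in K450, and the members' share was higher by 7.62% of its K30 value. The sign of the members' median difference changed with the scaling, as given below.

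Most single ribosomal protein genes fell slightly in K30LM3 cells. Tested by limma on log2(FPKM + 0.1) with Benjamini-Hochberg adjustment over all genes, 59 of 85 members were lower at an adjusted p below 0.05, 7 were higher and 19 were neither, where 33.4% of the 14197 genes tested were lower and 27.3% were higher. The median log2 change was -0.162 over the members and -0.054 over all genes tested. Among the other genes with a mean of at least 100 FPKM the split went the other way, with 453 of 895 higher, 263 lower and a median of 0.102. The changes were small: no member passed a fold of 2, which 8.39% of all genes tested did, and none of the members that fell passed a fold of 1.5. All 3 K30LM3 libraries lay below all 3 K30 libraries for 62 members and above them for 7, against 36.6% and 30.2% of all genes tested. After quantile normalization, which gives every library the same distribution of values up to its highest genes, 41 members were lower and 15 higher, 13 of the 59 changed sign, and 5 of these (*RPL27*, *RPL35A*, *RPLP1*, *RPS2* and *RPS24*) were called higher. Under all 5 scalings compared, 36 members were lower and 6 were higher.

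Several of the larger falls in K30LM3 were those of abundant proteins of both subunits. *RPS27A*, which encodes a ribosomal protein fused to ubiquitin, went from 1232, 1261 and 1254 FPKM to 925, 960 and 887, which is -0.44 on the log2 scale (limma, adjusted p = 1.58e-05, standard error 0.031). The groups were separate, with all K30LM3 values under 1000 FPKM. *RPL13A*, a large-subunit protein also known for translational silencing in myeloid cells, went from 2297, 2165 and 2230 FPKM to 1699, 1691 and 1627 (log2 change -0.42). *RPL3*, which reaches into the peptidyl transferase center, went from 1479, 1385 and 1403 FPKM to 1077, 1101 and 1033 (log2 change -0.41). Their fold changes were 0.750 and 0.753, and the libraries of both genes were separate. *RPS20* of the small-subunit head and *RPS27*, a zinc finger protein of the small subunit, followed with log2 changes of -0.39 and -0.38.

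The proteins of the ribosomal stalk, the arm of the large subunit that recruits translation factors, are encoded by 3 genes, of which 2 were lower in K30LM3. *RPLP0*, which anchors the stalk, had 2707, 2604 and 2611 FPKM in K30 and 2168, 2180 and 2150 in K30LM3, and fell by 0.29 on the log2 scale (standard error 0.023, adjusted p = 2.51e-05 from limma). Its partner *RPLP1* had 1991, 1850 and 1908 FPKM in K30 and 1761, 1796 and 1653 in K30LM3, a log2 change of -0.14 that turned to 0.10 after quantile normalization. The libraries of both genes were separate between the groups as deposited. *RPLP2* had 1009, 964 and 964 FPKM in K30 and 996, 1030 and 991 in K30LM3. These overlap, and its log2 change of 0.04 did not pass the test (adjusted p = 0.259 from limma). In KYSE450 *RPLP1* was the stalk gene that passed the test, with 2059, 2083 and 2088 FPKM in K450 and 1724, 1697 and 1696 in K450LM2, a log2 change of -0.28 (standard error 0.022, adjusted p = 7.43e-05). There *RPLP0* and *RPLP2* had log2 changes of -0.05 and 0.03.

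*RPL5*, *RPL11*, *RPS6*, *RPS3A* and *RPSA*, singled out for what they are known for beside or within the ribosome, were each lower in K30LM3. So were 69.4% of all members tested and 33.4% of all genes tested. *RPL5* and *RPL11* bind MDM2 together with the 5S ribosomal RNA. *RPL5* was 1878, 1914 and 1879 FPKM in K30 and 1512, 1493 and 1435 in K30LM3, and fell by 0.35 on the log2 scale (adjusted p = 1.6e-05 from limma), and *RPL11* went from 1225, 1251 and 1239 to 1158, 1153 and 1112 FPKM (log2 change -0.12, adjusted p = 0.00328). *RPS6*, the ribosomal target of S6 kinase, had a log2 change of -0.14, *RPS3A* of -0.22 and *RPSA*, whose product is also known as the laminin receptor, of -0.12. All 5 genes had separate libraries in KYSE30. In K450LM2 their log2 changes lay between -0.06 and 0.09 and none passed the test, with the smallest adjusted p of 0.0743 for *RPL11*. All K450LM2 libraries lay above all K450 libraries for *RPL11* and *RPSA*, as for 13.1% of all members tested and 23.3% of all genes tested.

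Of the 7 members that rose in K30LM3, 4 are paralogs of another member. Not all paralogs rose: *RPL26L1* was lower in K30LM3 (log2 change -0.15, adjusted p = 0.0113 from limma), and *RPL10L* and *RPL3L* were not tested. *RPL22L1*, the paralog of the RNA-binding protein *RPL22*, rose from 37.2, 42.2 and 36.4 FPKM in K30 to 74.7, 63.9 and 65.2 in K30LM3. Its fold change of 1.76 was the largest among the members in KYSE30 (log2 change 0.81, standard error 0.076, adjusted p = 5.64e-05 from limma). *RPL39L*, the paralog of *RPL39* at the peptide exit tunnel, went from 83.9, 78.7 and 81.0 FPKM to 124, 124 and 121 (log2 change 0.60). *RPL7L1*, whose relative in Saccharomyces cerevisiae is a large-subunit assembly factor, went from 46.5, 48.2 and 45.5 FPKM to 62.3, 60.7 and 61.0 (log2 change 0.39). No K30 library reached the level of any K30LM3 library for these 3 genes. *RPS27L*, a paralog of *RPS27* known as a p53 target, rose by 0.23 on the log2 scale. The other 3 are canonical members. *RPS26*, which lies near the mRNA exit of the small subunit, went from 345, 333 and 334 FPKM to 462, 459 and 427 (log2 change 0.41, standard error 0.036, adjusted p = 3.94e-05), and *RPS15* and *RPL24* rose by 0.18 and 0.13. Among these 7, *RPS15* was the one not called higher under all 5 scalings.

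In K450LM2 cells, *RPS4X* and *RPL26* rose and *RPLP1* and *RPL4* fell, while most ribosomal protein genes did not pass the test, as was the case for most genes tested. Of 84 members tested by limma, 7 were higher, 11 were lower and 66 were neither, where 14.3% of the 13819 genes tested were higher and 9.82% were lower, with a median log2 change of -0.012 over the members and 0.024 over all genes tested. No member passed a fold of 2, against 3.28% of all genes tested. All K450LM2 libraries lay above all K450 libraries for 11 members and below them for 15, against 23.3% and 17.0% of all genes tested. The counts rested in part on single libraries: 3 members were higher without K450 replicate 1 or without K450LM2 replicate 2, 4 without K450 replicate 2, and 7 were lower without K450LM2 replicate 3. Median centering gave 3 higher and 14 lower. Under all 5 scalings, *RPS4X*, *RPL26* and *RPS26* were higher and 8 members were lower.

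The rise of *RPS4X*, the X-linked copy of the small-subunit protein S4, was the largest. It was 1054, 1022 and 1072 FPKM in K450 and 1615, 1618 and 1627 in K450LM2. The K450LM2 libraries lay close to one another and far above K450, and the log2 change was 0.63 (standard error 0.026, adjusted p = 2.76e-06 from limma). *RPL26*, which sits near the peptide exit tunnel, went from 3147, 3059 and 3118 FPKM to 3920, 4144 and 4150, a log2 change of 0.39 (standard error 0.029, adjusted p = 6.25e-05). *RPS26* went from 503, 479 and 501 FPKM to 569, 578 and 571 (log2 change 0.21), and so rose in both lines. *RPL39L*, *RPL9* and *RPS27* rose by 0.14, 0.13 and 0.10 on the log2 scale, and *RPL34* by 0.09. The largest falls besides *RPLP1* were those of *RPL4*, a large-subunit protein that lines the exit tunnel, from 3149, 3119 and 3293 FPKM to 2576, 2692 and 2611 (log2 change -0.28, standard error 0.030, adjusted p = 0.000392), and of *RPL7L1*, from 72.9, 65.9 and 66.7 FPKM to 57.6, 57.6 and 55.8 (log2 change -0.26). *RPL22L1*, *RPS23*, *RPS10* and *RPS18* fell by 0.19, 0.19, 0.18 and 0.18. The call of *RPL22L1* was close to the threshold (adjusted p = 0.0479 from limma).

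Genes next to these members on the chromosome moved with some of them. For each member, the median log2 change was taken over up to 10 tested genes on each side that are not members, in the gene order of GENCODE v29. In K450LM2 the neighbors of *RPL26* on chromosome 17 had a median of 0.45, with 18 of 20 higher and 0 lower, and those of *RPS4X* on the X chromosome had a median of 0.52, with 12 of 20 higher and 0 lower. The neighbors of *RPL7L1* and *RPS18* on chromosome 6 both had a median of -0.22, with 11 and 10 of 20 lower and 0 higher. Those of *RPS26* and *RPL4* had medians of -0.03 and -0.13. Across 78 members with a mean of at least 100 FPKM, Pearson's r between a member's change and its neighbors' median was 0.75 in K450LM2 (Spearman's rho 0.49) and 0.26 in K30LM3 (rho 0.25). These points share the same 6 libraries in each line, and members on the same chromosome can share neighbors, so the correlations only describe these tables. The part of chromosomal position in the members' changes was not tested.

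The 2 lines were compared by testing the difference of their changes, KYSE450 minus KYSE30, in 1 limma fit of all 12 libraries. It was above 0 for 46 of 85 members and below 0 for 6, where 28.2% of the 15488 genes tested were above and 21.5% were below. Median centering gave 26 above and 10 below, and quantile normalization 31 and 14, and under all 5 scalings 21 were above 0 and 6 below. Among the members that passed the test, *RPS4X* had the largest positive difference. It was lower in K30LM3 (1077, 1082 and 1031 FPKM to 923, 937 and 914) and higher in K450LM2, with a difference of 0.83 on the log2 scale (standard error 0.035, adjusted p = 1.66e-08). *RPL26*, *RPL9*, *RPL34* and *RPS27* likewise fell in K30LM3 and rose in K450LM2. *RPL22L1* and *RPL7L1* went the other way, with differences of -1.0 and -0.66 on the log2 scale. The calls in both lines held under all 5 scalings for *RPS4X* and *RPL7L1*, while *RPL26* lost that in KYSE30, and *RPL9*, *RPL34*, *RPS27* and *RPL22L1* that in KYSE450, under at least 1 of them. Of the 7 members higher in each line, *RPS26* and *RPL39L* were higher in both, which is 28.6% of each list. Under all 5 scalings this held for *RPS26*, while *RPL39L* lost the call in KYSE450 under at least 1 of them. Among the 12650 genes tested in both lines, 635 were higher in both, which is 17.4% of the KYSE30 list and 35.6% of the KYSE450 list. The 8 members lower in both lines, which are 13.6% of the 59 lower in KYSE30 and 72.7% of the 11 lower in KYSE450, were *RPL4*, *RPLP1*, *RPS10*, *RPS12*, *RPS16*, *RPS18*, *RPS23* and *RPS29*. The share of 72.7% lay near the 70.2% of all 84 members tested in both lines that were lower in KYSE30. Over the 12650 genes tested in both lines, 420 were lower in both, which is 10.3% and 34.8% of the 2 lists, and 32.2% were lower in KYSE30. After quantile normalization, *RPL4*, *RPLP1*, *RPS10* and *RPS29* had positive changes in KYSE30, and *RPLP1* was called higher there. *RPS12* and *RPS16* lost the call in KYSE30 under at least 1 scaling. Of the 8, *RPS18* and *RPS23* were lower in both lines under all 5 scalings.

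Paralogs were also set against their canonical partners within each library, where scaling by 1 factor per library cancels. Quantile normalization is not such a scaling and would not cancel. *RPL22L1* stood at 6.14 ± 0.58% (SD, n = 3) of the *RPL22* level in K30 and 11.6 ± 0.9% in K30LM3, and at 8.34 ± 0.6% in K450 and 7.12 ± 0.13% in K450LM2. The ratio was thus higher in every K30LM3 library than in any K30 library and lower in every K450LM2 library than in any K450 library. *RPL39L* stood at 2.51 ± 0.11% of *RPL39* in K30 and 4.34 ± 0.075% in K30LM3, and at 2.40 ± 0.066% in K450 and 2.58 ± 0.14% in K450LM2, where the libraries overlapped. *RPS27L* was at 0.752 ± 0.042% of *RPS27* in K30 and 1.15 ± 0.054% in K30LM3, with separate libraries, and at 0.583 ± 0.035% and 0.581 ± 0.033% in K450 and K450LM2. *RPL7L1* was at 1.75 ± 0.036% of *RPL7* in K30 and 2.54 ± 0.043% in K30LM3, and at 3.71 ± 0.2% in K450 and 2.96 ± 0.11% in K450LM2. *RPL26L1* was at 3.44 ± 0.019% and 3.50 ± 0.07% of *RPL26* in KYSE30, and was 3.85 ± 0.13% in K450 and 3.05 ± 0.16% in K450LM2, where *RPL26* itself rose. For ratios with separate libraries the exact permutation test gives p = 0.1, the smallest value that 3 against 3 allow.

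Reads from near-identical copies can be divided between rows, and some member values are uncertain for this reason. The 802 symbols of ribosomal protein pseudogenes summed to 5.384 ± 0.115% of the members' FPKM in K30, 5.547 ± 0.166% in K30LM3, 6.405 ± 0.0966% in K450 and 6.812 ± 0.147% in K450LM2. The K450LM2 libraries lay above the K450 libraries in this share, and its part in the members' changes was not tested. *RPS10L* and *RPL12L3* were at 3.37 FPKM or less in every library.

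The parental lines differed from each other in which ribosomal proteins they expressed most, far more than either differed from its selected population. In K450, 51 of 85 members were higher than in K30 and 27 were lower by limma, where 35.0% and 45.7% of the 14778 genes tested were higher and lower. The median log2 difference of 0.139 over the members turned to -0.075 after quantile normalization, with 37 higher and 43 lower, and to 0.369 after median centering, with 58 higher and 15 lower. These 2 scalings moved the median of the other genes by 0.189 and 0.23, so the direction of the family as a whole depends on the scaling. The SD of the log2 difference over 79 members was 0.521 between K450 and K30, 0.15 between K30LM3 and K30, 0.131 between K450LM2 and K450, and 0.038 to 0.12 between libraries of 1 group. Under all 5 scalings 36 members were higher in K450 and 15 were lower.

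Past a fold of 2, which 35.2% of all genes tested passed, stood 4 members. *RPS6* was 1066, 1058 and 1050 FPKM in K30 and 3482, 3368 and 3553 in K450, a log2 difference of 1.71 (standard error 0.027, adjusted p = 2.99e-09 from limma). *RPL27A* of the large subunit was 958, 950 and 953 FPKM in K30 and 2770, 2708 and 2837 in K450, a log2 difference of 1.54. *RPS25*, a small-subunit protein needed for initiation at some viral internal ribosome entry sites, was 479, 489 and 495 FPKM in K30 and 1320, 1257 and 1354 in K450, a log2 difference of 1.43. No library of one line came near the other for these genes, and the selected populations lay nearer to their own parental line than to the other, with *RPS6* at 941 to 971 FPKM in K30LM3 and 3248 to 3450 in K450LM2. All 3 genes were lower in K30LM3 than in K30, with log2 changes of -0.14 for *RPS6*, -0.28 for *RPL27A* and -0.24 for *RPS25*, and none passed the test in K450LM2. The pseudogene row *RPS10L*, at 0.31 to 2.28 FPKM in the parental libraries, was lower in K450. The 5 members on chromosome 11 with a mean of at least 100 FPKM, *RPL27A*, *RPLP2*, *RPS13*, *RPS25* and *RPS3*, had a median log2 difference of 0.83 and all lay above 0 as deposited, although that of *RPLP2* changed sign after quantile normalization. The genes next to *RPL27A* and *RPS25* had medians of 0.86 and 0.91, and those next to *RPS6* on chromosome 9 one of 0.62. Across 78 members, Pearson's r between the member's difference and its neighbors' median was 0.76 (Spearman's rho 0.75), as a description over 6 shared libraries.

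**Figure D1:**
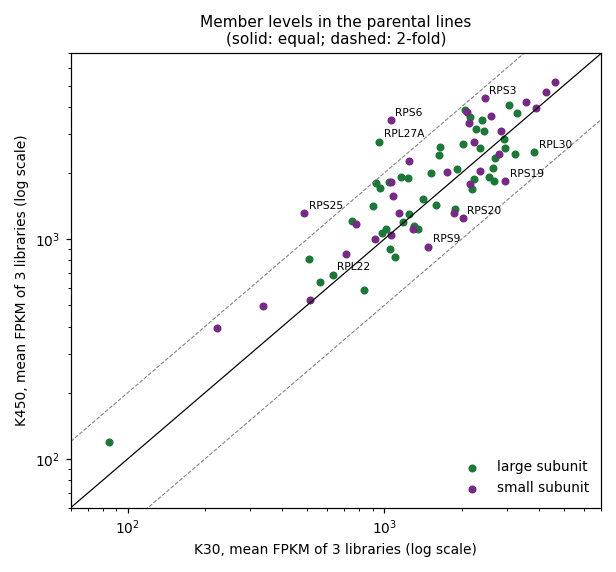
Mean FPKM of 3 libraries in K450 (y axis, log scale) against K30 (x axis, log scale) for the 79 members with a mean of at least 100 FPKM, green for the large and purple for the small subunit; the solid line marks equal levels and the dashed lines a fold of 2. RPS6, RPL27A and RPS25 lie above the upper dashed line, with log2 differences of 1.71, 1.54 and 1.43.

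The changes were also set beside the first bases of each mRNA. In K30LM3 the median log2 change was -0.18 (quartiles -0.25 and -0.10) over 46 members with a C and at least 4 more pyrimidines at the annotated start, and -0.11 (quartiles -0.17 and -0.03) over 17 members with another start. The second group held *RPS26* and *RPS15*, which rose, and *RPL3*, which was among the largest falls. The grouping follows the annotated start, which may not be the one these cells use. In *RPS4X*, *RPS26* and *RPL4* of the second group, a pyrimidine run lies a few bases after that start. Both groups hold only members with a mean of at least 100 FPKM. They therefore leave out *RPL22L1*, which begins with a C and a pyrimidine run and rose by 0.81. *RPL7L1* and *RPS27L*, which have another start and also rose, are left out as well. In K450LM2 the medians were 0.00 and 0.01, and *RPS4X*, with the largest rise, and *RPL4* belong to the group with another start, whereas *RPLP1*, which fell by as much as *RPL4* (log2 change -0.28 for each), has a C and a pyrimidine run.

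Genes that build the ribosome or work on it were counted as lists beside the members. These lists were chosen with earlier results of these data known. Of all genes tested by limma, 27.3% were higher and 33.4% lower in K30LM3, and 14.3% and 9.82% in K450LM2. In K30LM3, 59 of 71 ribosome biogenesis factors were higher and 2 lower by limma, with a median log2 change of 0.488, set against -0.162 for the ribosomal proteins themselves and -0.054 for all genes tested. The counts under the 4 other scalings were 58 to 63 higher and 1 or 2 lower. Among them *LYAR*, a nucleolar zinc finger protein, went from 11.6 ± 0.699 FPKM (SD, n = 3) to 27.5 ± 1.22, and *TCOF1* and *DDX21*, which act in ribosomal RNA transcription and processing, went from 33.1 ± 1.28 to 61.5 ± 1.5 and from 31.5 ± 0.989 to 58.2 ± 1.32. *LYAR* was the one factor past a fold of 2 (log2 change 1.24, adjusted p = 2.9e-06). In K450LM2, 7 of these factors were higher and 10 lower, with a median of -0.036. *MDN1* and *NOP10* fell there by 0.42 and 0.37 on the log2 scale, and *TSR1* rose by 0.36. The difference between the lines was below 0 for 56 of the 71 factors and above 0 for 2 in the fit of 12 libraries. Of all genes tested in that fit, 21.5% were below 0 and 28.2% above.

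RNA polymerase I, which transcribes the ribosomal RNA genes, had 7 of 14 subunits or cofactors higher and 2 lower in K30LM3 (median 0.224), led by *CD3EAP* with a log2 change of 0.77. Of 23 initiation factors other than eIF3, 14 were higher and 6 lower (median 0.169), and *EIF1AX*, *EIF5* and *EIF4E*, the cap-binding protein, rose by 0.78, 0.63 and 0.54. Of the 13 eIF3 subunits, 4 were higher and 5 lower. Elongation factors were split, with 3 of 10 higher and 3 lower (median -0.065), but their summed level was 13650 to 13990 FPKM in K30 and 11650 to 12020 in K30LM3. *EEF1A1*, whose mRNA also begins with a pyrimidine run, went from 7369 ± 82.6 to 5930 ± 51.4 FPKM (SD, n = 3), and *TPT1*, a growth-related gene counted with the elongation factors, from 2072 ± 34 to 1655 ± 43.5, while *EIF5A* rose from 374.6 ± 14.3 to 640.2 ± 13.5. The same 3 genes moved in the same directions in K450LM2, by -0.20, -0.22 and 0.43 on the log2 scale. Of the mitochondrial ribosomal proteins, 37 of 77 were higher and 8 lower in K30LM3 (median 0.145), and 11 and 9 in K450LM2. The snoRNA host genes (7 of 15 higher, 3 lower) and the mTOR and MYC genes that control ribosome synthesis (6 of 19 higher, 5 lower) had medians of 0.120 and -0.013 in K30LM3, and the latter was above 0 under 3 of the other scalings. Among the ribosomal proteins outside the symbol rule, *GNB2L1*, which encodes RACK1 of the small subunit, fell by 0.21 in K30LM3 and *RPL36AL* rose by 0.18, and in K450LM2 *FAU* rose by 0.22.

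Other features of the libraries moved with the members in KYSE30. Replication-dependent histone genes, most of whose mRNAs lack a poly(A) tail, had 10 of 11 lower and 1 higher in K30LM3 (median -0.656), and summed to 574 to 611 FPKM in K30 and 416 to 440 in K30LM3. In K450LM2, 2 of 12 were lower and none was higher by limma, and their sums were 118 to 122 FPKM in K450 and 96.9 to 107 in K450LM2. Of all genes tested, 33.4% were lower in K30LM3 and 9.82% in K450LM2. The summed FPKM of all genes fell by 3.57% from K30 to K30LM3, again with separate libraries, and scaling every library to the same sum gave 50 members lower and 11 higher. The part of these features in the members' changes was not tested.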

How the data were processed

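RNA-seq was done on 12 libraries of poly(A) RNA. The authors deposited 1 table of FPKM per gene, made by the authors, according to the submitters' notes on processing, with hg19 as the genome build and with STAR 2.5.1b and RSEM 1.2.29. The authors' notes also list Trimmomatic 0.36, edgeR 3.8.5 and FastQC. No scaling between libraries is named. FPKM are not counts, so log2(FPKM + 0.1) was tested with limma 3.58.1 in R 4.3.3 (lmFit, eBayes with a trend, two-sided, Benjamini-Hochberg over all genes tested). The 6 libraries of each comparison were fitted alone, over genes with at least 1 FPKM in at least 3 of them. A member was called at an adjusted p below 0.05. Fold changes are on the log2(FPKM + 0.1) scale and understate changes of low genes. Sums were compared with exact two-sided permutation tests (scipy 1.17.1). The procedure was tested on simulated data. Depth was estimated from the spacing of low values of 30583 genes with 1 transcript at a fragment length of 210 (21.5 to 29.5 M fragments), so low rows such as *RPL10L* rest on few fragments.

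The members and lists were chosen with earlier results of these data known. Members named with values were the stalk proteins and *RPSA*, paralogs, the 6 largest called rises and falls per line, the 5 highest and lowest in level, *RPL5*, *RPL11*, *RPS6*, *RPS3A* and those past a fold of 2. *RPL34*, *RPS24*, *RPL35A*, *RPL27*, *RPS12*, *RPS13*, *RPS16*, *RPS3* and *RPL24* were named outside this rule, after their values were seen. Gene order and types came from GENCODE v29, which describes GRCh38, so no coordinates of it are given. Start sequences came from RefSeq on GRCh38.p14, with none shown from chromosome 8. Single values of some members are not reported here. As alternatives, results were recomputed with a pseudocount of 1 or 0.01, without the filter or with one at 5 FPKM, after quantile normalization or centering on the median, and with scaling to a common sum (TPM), scaling to the sum of the genes that are not members, eBayes without a trend, 1 fit of all 12 libraries, a replicate block, a fold of 1.5 and leaving out each library.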

Additional observations from a re-analysis of the deposited data

Results flagged for a closer look

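Named members include the largest rises and falls within each line, so a count of differences between the lines among them partly reflects that choice. Over all 85 members tested, 46 differences were above 0 and 6 below, where 28.2% and 21.5% of the 15488 genes tested were above and below. The difference between the lines in the change from parental to selected cells passed the test (interaction term of limma over 12 libraries, adjusted p below 0.05) for 25 of the named members. It was above 0, in log2 units, for *RPS4X* (0.83), *RPL26* (0.56), *RPS27* (0.47), *RPL3* (0.39), *RPS20* (0.38), *RPS27A* (0.38), *RPL5* (0.36), *RPL13A* (0.32), *RPS3A* (0.28), *RPL9* (0.27), *RPLP0* (0.24), *RPL27A* (0.22), *RPL11* (0.21), *RPL12* (0.20), *RPL26L1* (0.20), *RPS2* (0.20), *RPSA* (0.18), *RPS18* (0.17) and *RPS25* (0.16). It was below 0 for *RPL22L1* (-1.0), *RPL7L1* (-0.66), *RPL39L* (-0.46), *RPS26* (-0.20), *RPL4* (-0.17) and *RPLP1* (-0.14). For *RPS4X*, *RPL26*, *RPS27*, *RPL9*, *RPL22L1* and *RPL7L1* the changes had opposite signs and passed the test in each line. Under all 5 scalings this held for *RPS4X* and *RPL7L1*. At least 1 scaling lost the call in KYSE30 for *RPL26* and the call in KYSE450 for *RPS27*, *RPL9* and *RPL22L1*, while the difference itself passed under all 5 for all 6 genes. Each of the other 19 differs in size, or passed the test in 1 line alone.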

How the results depend on the processing

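With 3 libraries in a group, members that did not pass the test may still differ. Scaling mattered most. In K30LM3, quantile normalization gave 15 members higher, median centering and TPM 11 each, and the median of the members moved to -0.054 and, with TPM, -0.109. At a fold of 1.5 2 were higher and 0 lower. In K450LM2, members higher and lower numbered 11 and 23 after quantile normalization and 4 and 7 with no filter on low values, 3 were higher after median centering, and 3 were higher and 6 lower with eBayes without a trend. At a fold of 1.5 they numbered 1 and 0. The median moved to -0.042 after quantile normalization and -0.04 after median centering. Leaving out 1 library gave 3 to 7 higher and 7 to 10 lower there, and 7 to 8 and 59 to 60 in K30LM3. For K450 against K30, 43 were lower after quantile normalization and 15 after median centering, which put 13 past a fold of 2. The median was -0.075, 0.369, 0.041 with TPM and 0.067 with scaling to the other genes. Quantile normalization reversed *RPL4* (0.01), *RPLP1* (0.10), *RPS10* (0.02), *RPS2* (0.08) and *RPS29* (0.03) in KYSE30 and *RPL5* (-0.09) in KYSE450. The cause was not tested.

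The replicate numbers do not pair the samples: same-numbered libraries had correlations of their deviations of -0.073 to 0.006 in KYSE30 and 0.031 to 0.111 in KYSE450. With a replicate block, 7 members were higher and 60 lower in K30LM3, 8 and 15 in K450LM2, and 50 and 27 in K450 against K30, and 54 differed between the lines, where the fit without it gave 52.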
